A study of Mus musculus castaneus and Mus musculus domesticus and Mus musculus with 11 samples.

Results

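The 9 genes described here mark the oligodendrocyte lineage, from precursor to myelinating cell, and were read in cultures of motor neurons derived from mouse stem cells. They were chosen by name, as the rows of the count matrix whose Ensembl gene ID maps to Sox10, Olig1, Myrf, Pdgfra, Cspg4, Gpr17, Mbp, Mog and Mag. All 9 were found among 27071 genes, and all are protein-coding. Polyadenylated RNA was sequenced from 3 groups of 3 libraries each. The hybrid is a line of a cross between CAST/EiJ and 129S6/SvEv that the labels name 129CAS. CAST is a line of CAST/EiJ, a strain of Mus musculus castaneus, and 129 is a line of 129S6/SvEv. No drug, time point or engineered allele is given for any group, and the stated purpose was to compare the transcriptional identity of the lines. Nothing in the labels tells whether replicate libraries are separate cultures or clones, and the p-values therefore reflect only how far these libraries differ among themselves. A further 2 CAST samples were not analysed here.

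Oligodendrocytes wrap axons of the central nervous system in myelin, a stack of compacted membrane. In the spinal cord their precursors arise largely from the ventral progenitor domain that first produces motor neurons, and the transcription factors of the Olig family act in both. Precursors carry receptors for growth factors, pass through a short-lived committed stage, and then switch on the proteins of the myelin sheath.

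Total counts ran from 7763077 to 14502335 in the hybrid, from 11167254 to 16374911 in CAST and from 16763198 to 18167577 in 129. Levels are written CPM, the count scaled to a common library size after TMM, a correction for library composition. The libraries hybrid 2 and CAST 1 stood apart, since relative log2 level changed by −0.60 and −0.49 per doubling of exon length over 14830 genes. The same slope was −0.25 in hybrid 3 and lay between 0.07 and 0.31 in the other libraries. Motor neuron identity genes summed to 97.1 to 133 CPM in the hybrid, 117 to 233 CPM in CAST and 119 to 449 CPM in 129, and none of the 7 was at 0 in any line. Their levels were uneven. Slc18a3 averaged 48.2, 69.7 and 56.2 CPM in the hybrid, CAST and 129. Lhx3, the lowest, averaged 0.466, 0.292 and 1.245 CPM in the same order and had 0 counts in a hybrid library.

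The 9 genes were weakly read. Per kilobase of exon and averaged over the 9 libraries, Mog was at 2.72 CPM per kb, Pdgfra at 2.25, Olig1 at 1.57, Mbp at 1.23, Myrf at 0.739, Cspg4 at 0.518, Gpr17 at 0.242, Mag at 0.230 and Sox10 at 0.0959. The order differed by line. Mog came first in the hybrid at 8.06 ± 4.97 CPM per kb (SD, n = 3), Olig1 in CAST at 0.979 ± 0.104 CPM per kb and Pdgfra in 129 at 4.14 ± 0.859 CPM per kb. Genes next to each other in the order of a line had overlapping libraries, except Sox10 and Gpr17 in 129, at 0.0890 and 0.0146 CPM per kb. Of the 9, 8 passed the filter on low counts that kept 14839 genes for testing, and Sox10 did not.

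**Figure D1:**
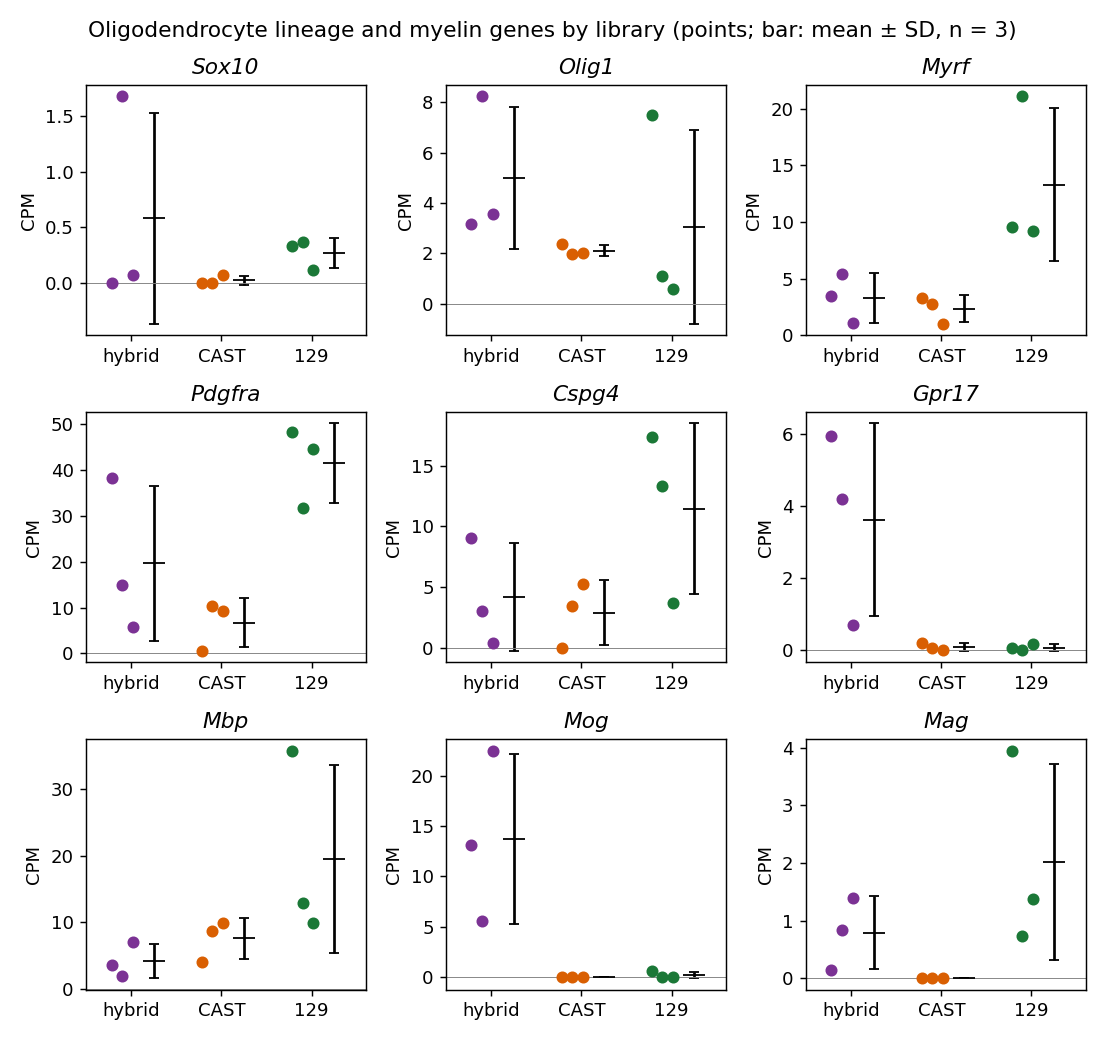
CPM (vertical axis, linear) of each of the 9 genes in each hybrid, CAST and 129 library, with the mean and SD of each line as a bar (n = 3). Mog is high in all hybrid libraries and at or near 0 in the others, while Myrf and Mbp are highest in 129. Gpr17 is high in hybrid 1 and hybrid 2, at 0.699 CPM in hybrid 3, and at or near 0 in CAST and 129.

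Among the transcription factors, Sox10, which directs both precursor maintenance and myelin gene expression, was all but unread. It had 0, 12 and 1 counts in hybrid libraries 1 to 3, 0, 0 and 1 counts in CAST, and 6, 6 and 2 counts in 129. Nearly all hybrid reads thus came from hybrid 2, and CAST lay below 129 in every library. The summed and depth-scaled ratio was 1.35 for the hybrid over 129 (exact 95% counting interval 0.585 to 3.10). For CAST over 129 it was 0.0893 (0.00211 to 0.587), and for the hybrid over CAST it was 15.1 (2.27 to 643). These intervals cover counting error only. Sox10 missed the filter of the main edgeR test, and no comparison passed in DESeq2 (adjusted p from 0.204 to 0.715) or in edgeR without the filter (adjusted p from 0.308 to 0.725).

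Olig1 lies on chromosome 16 (91269772 to 91271933, plus strand) and encodes a helix-loop-helix factor of the lineage. Its levels were 3.18, 8.24 and 3.56 CPM in the hybrid, 2.37, 1.97 and 2.01 CPM in CAST, and 7.51, 1.10 and 0.575 CPM in 129. The 129 libraries ran from below every CAST library to above all but hybrid 2, and every hybrid library was above every CAST library. No difference passed the test in edgeR: the log2 fold change was 0.69 ± 0.85 (SE) for the hybrid over 129 (adjusted p = 0.618), 1.23 ± 0.87 for the hybrid over CAST (adjusted p = 0.616) and −0.54 ± 0.86 for CAST over 129 (adjusted p = 0.748). Without 129 replicate 1 the hybrid over 129 was 2.54 (edgeR adjusted p = 0.0747) and CAST over 129 turned to 1.32 (edgeR adjusted p = 0.523). Without hybrid replicate 2 the hybrid over 129 was 0.14 (edgeR adjusted p = 0.968), and with 1 other library left out it lay between these values.

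Myrf (chromosome 19, 10208272 to 10240748, minus strand) encodes a membrane-bound factor that is cleaved and then activates myelin genes in mature oligodendrocytes. It read 3.47, 5.45 and 1.05 CPM in the hybrid, 3.30, 2.75 and 1.0 CPM in CAST, and 9.56, 21.1 and 9.25 CPM in 129. All 129 libraries lay above all others, and the hybrid and CAST overlapped. Relative to 129, the edgeR log2 fold change was −2.02 ± 0.68 in the hybrid (adjusted p = 0.128) and −2.50 ± 0.69 in CAST (adjusted p = 0.144), and neither passed the test. With DESeq2 both did, at adjusted p = 0.0310 for the hybrid and 0.00896 for CAST, the only 1 of 17 alternative settings to call either. With an offset for exon length, the values were −1.35 in the hybrid (edgeR adjusted p = 0.335) and −1.88 in CAST (edgeR adjusted p = 0.296).

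Pdgfra, the receptor for platelet-derived growth factor that drives division of precursors, had the highest mean CPM of the 9 genes over all libraries, though not per kilobase, where Mog was above it. It is encoded on chromosome 5 (75152292 to 75198215, plus strand) and is also made by fibroblasts and other mesenchymal cells. Its levels were 38.3, 14.8 and 5.73 CPM in the hybrid, 0.516, 10.4 and 9.18 CPM in CAST, and 48.2, 31.8 and 44.5 CPM in 129. All CAST libraries lay below all 129 libraries, and the hybrid overlapped both lines. The edgeR log2 fold change of CAST over 129 was −2.61 ± 0.94 (adjusted p = 0.251), which did not pass, while DESeq2 gave an adjusted p of 0.0469. DESeq2 was the only 1 of 17 alternative settings to call it, and with an offset for exon length it was −2.43 (edgeR adjusted p = 0.12). For the hybrid the main edgeR value was −1.08 ± 0.89 over 129 (adjusted p = 0.463) and 1.54 ± 0.91 over CAST (adjusted p = 0.509).

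Cspg4 (chromosome 9, 56865033 to 56899870, plus strand) encodes the NG2 proteoglycan, found on precursors and on pericytes. It had 9.06, 3.07 and 0.419 CPM in the hybrid, 0, 3.43 and 5.30 CPM in CAST, and 17.3, 13.3 and 3.68 CPM in 129. The lines overlapped in each pair, and no comparison passed in edgeR (adjusted p from 0.469 to 0.919). Across the 9 libraries, log2 CPM of Pdgfra and Cspg4 had a Pearson correlation of 0.91, a description over libraries that share line and depth.

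Markers of fibroblasts, mesenchyme and pericytes moved with these genes in part. The 14 markers, all read in every line, summed to 22148, 10592 and 1589 CPM in the hybrid, 4499, 5122 and 6261 CPM in CAST, and 20679, 15932 and 4245 CPM in 129. The libraries hybrid 1, 129 1 and 129 2 were high in these markers and in Pdgfra and Cspg4, whereas 129 3 was low in the markers and had 44.5 CPM of Pdgfra. Hybrid 2 was above every CAST library in the markers, yet its 3.07 CPM of Cspg4 lay below CAST 2 (3.43 CPM) and CAST 3 (5.30 CPM). Over the 9 libraries, the correlation with the log2 sum was 0.74 for Cspg4, 0.59 for Myrf and 0.57 for Pdgfra, given as a description. None of the 14 markers passed in edgeR, and at an unadjusted p under 0.05 there were 1 in the hybrid against 129, 7 in the hybrid against CAST and 5 in CAST against 129. Over all tested genes 14.6% had such a p in CAST against 129. The share in the hybrid comparisons was not counted, here or for the lists below. Their medians of log2 fold change were 0.12, 1.97 and −2.19 in that order of comparisons, beside 0.02, −0.08 and 0.06 over all tested genes. The part of these cells in the levels of the lineage genes was not tested, and in bulk RNA fewer cells of a type and less RNA per cell cannot be told apart.

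**Figure D2:**
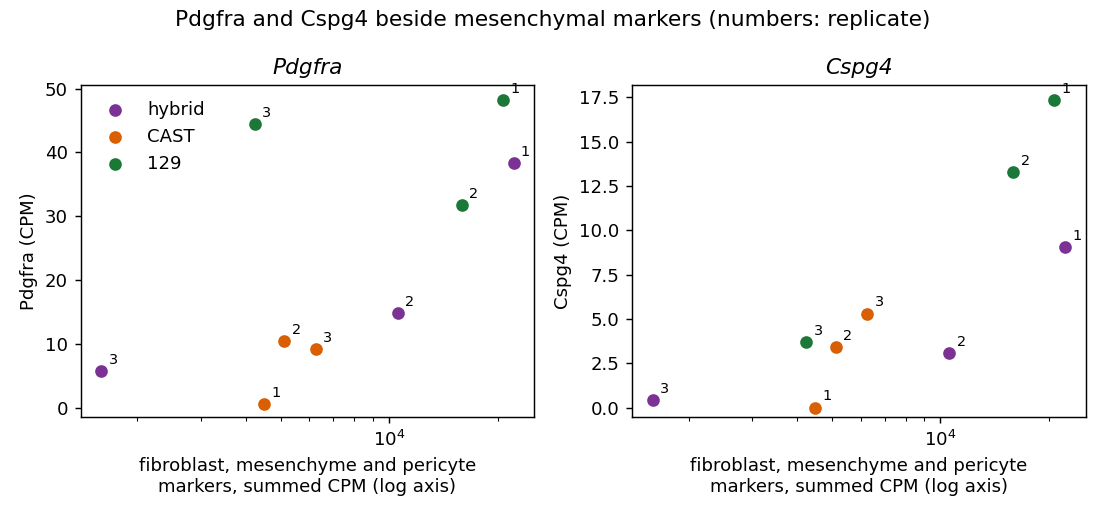
CPM of Pdgfra (left) and Cspg4 (right) against the summed CPM of 14 fibroblast, mesenchyme and pericyte markers (log axis), 1 point for each library, coloured by line and numbered by replicate. Hybrid 1, 129 1 and 129 2 are high in the sum and in Cspg4, while hybrid 2 has 3.07 CPM of Cspg4 at a sum of 10592 CPM. The library 129 3 has 44.5 CPM of Pdgfra at a sum of 4245 CPM.

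Gpr17 rose in the hybrid against both other lines, as counted. Whether the hybrid was counted with the same strand and overlap settings as the parental lines is not stated, and this limit holds for every rise in the hybrid given here. It encodes a receptor coupled to G proteins that is made briefly by committed precursors. The gene had 5.94, 4.19 and 0.699 CPM in the hybrid, 0.207, 0.0562 and 0 CPM in CAST, and 0.0556, 0 and 0.172 CPM in 129. In counts this was 84, 30 and 10 in the hybrid, 2, 1 and 0 in CAST, and 1, 0 and 3 in 129. Every hybrid library was above every other library, and hybrid 3 was the lowest of them. The log2 fold change over 129 was 5.40 ± 1.18 (edgeR adjusted p = 0.0230), a ratio of 45.1 in depth-scaled sums (counting interval 17.2 to 168). Over CAST, with 3 counts in all, the ratio was 48.1 (counting interval 16.1 to 237) and the edgeR adjusted p was 0.0288. CAST over 129 gave −0.01 ± 0.90 (edgeR adjusted p = 1).

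Mog, the other gene that rose in the hybrid, encodes a glycoprotein of the outermost myelin layer. It had 13.1, 5.59 and 22.5 CPM in the hybrid, 0 CPM in each CAST library, and 0.556, 0 and 0 CPM in 129. These were 185, 40 and 322 counts in the hybrid, none in CAST, and 10 in 129 1 alone among the 129 libraries. Over 129 the log2 fold change was 6.12 ± 1.31 (edgeR adjusted p = 0.0337), a ratio of 79.6 (counting interval 42.9 to 167). Against a floor of 3 counts over the CAST group, the hybrid was at least 212-fold higher (edgeR adjusted p = 0.0168). The 129 reads set CAST at least 2.67-fold lower than 129, which did not pass (edgeR adjusted p = 0.402).

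Of the 8 tested genes, 2 were thus called higher in the hybrid against 129 and 2 against CAST, both times Gpr17 and Mog, and none lower. Both passed the filter on low counts through their hybrid libraries alone, so their place among the tested genes depended on the rise then called. In edgeR without the filter both were called against 129 and against CAST (adjusted p from 0.00504 to 0.0236). The comparisons share the hybrid libraries. Over all tested genes edgeR called 7.02% in the hybrid against 129 (5.41% higher in the hybrid) and 6% in the hybrid against CAST (4.41% higher in the hybrid). DESeq2 called 3 of the 9 in the hybrid against 129 (Gpr17 higher, Myrf and Mbp lower) where it called 12.1% of all genes, and left Mog at an adjusted p of 0.0626. In the hybrid against CAST, DESeq2 and limma-voom each called Gpr17, Mog and Mag, beside 9.72% and 6.56% of all genes. The joint edgeR test for any difference among the lines called Gpr17 (adjusted p = 0.0128) and Mog (adjusted p = 0.0119), beside 8.03% of all genes, and DESeq2 called 5 of the 9 beside 15.2%. The calls depended on single libraries: against 129, edgeR kept Gpr17 in 4 and Mog in 4 of the 9 fits that each left out a library, with adjusted p of Gpr17 from 0.0177 to 0.107 and of Mog from 0.0210 to 0.110. Against CAST, edgeR kept Gpr17 in 4 of these 9 fits (adjusted p from 0.0192 to 0.129) and Mog in 8 (adjusted p from 0.00928 to 0.0512, the highest without CAST replicate 2).

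**Figure D3:**
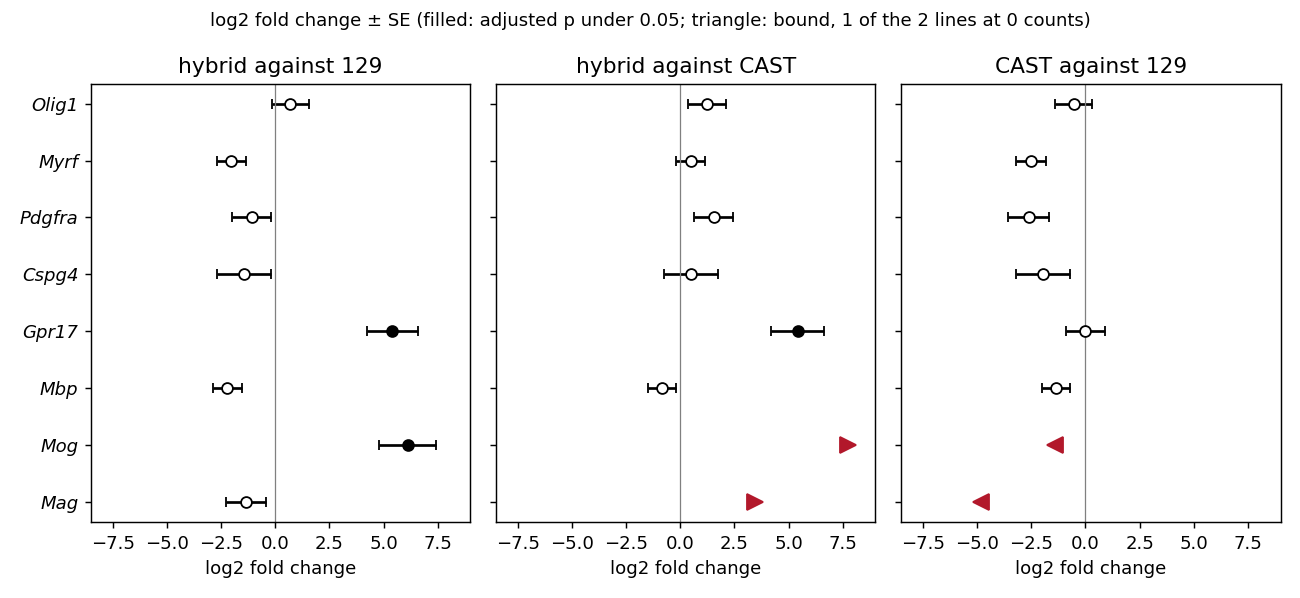
The log2 fold change (horizontal axis, SE as bars) of the 8 tested genes from edgeR, for the hybrid over 129, the hybrid over CAST, and CAST over 129. Filled points passed the adjusted p threshold of 0.05, and triangles are bounds for pairs in which 1 line had 0 counts: Gpr17 and Mog are called in both hybrid comparisons, and no point is filled for CAST over 129.

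Both genes that rose have a neighbour on the opposite strand, and these neighbours were looked up after the values were seen. Gpr17 (chromosome 18, 31942997 to 31949636, minus strand) lies inside Lims2 (31922290 to 31958619, plus strand), and 3.62% of its exonic bases are shared with Lims2 exons. Lims2 had 271, 198 and 31 counts in the hybrid, 85, 76 and 54 counts in CAST, and 268, 231 and 80 counts in 129, and did not pass in edgeR (adjusted p from 0.440 to 0.680). Set against Lims2 counts, Gpr17 counts were 31.0%, 15.2% and 32.3% in the hybrid, 2.35%, 1.32% and 0% in CAST, and 0.373%, 0% and 3.75% in 129.

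Mog (chromosome 17, 37010743 to 37023398, minus strand) shares no exonic base with another gene, but its 3' end faces that of Zfp57 (37001163 to 37010635, plus strand) at a distance of 107 bases. Zfp57, which encodes a zinc finger protein that protects imprints, had 985, 506 and 2219 counts in the hybrid, 676, 1673 and 688 counts in CAST, and 736, 822 and 1136 counts in 129. In raw counts the order of the hybrid libraries was the same in Zfp57 and Mog, but hybrid 2, the lowest in both, was also the smallest library. Set against Zfp57 counts, Mog counts were 18.8%, 7.91% and 14.5% in the hybrid, 0% in every CAST library, and 1.36% in 129 1. Zfp57 did not pass in edgeR (adjusted p from 0.241 to 0.722).

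Over all tested genes, the percentage called higher in the hybrid differed between classes of exonic overlap, which were also set after values were seen. In the hybrid against 129, edgeR called 2.01% of 9266 genes without exonic overlap higher, 8.23% of 4520 genes that share under 50% of their exonic bases with a gene of the other strand, and 48.5% of 200 genes that share 50% or more. With 50% or more shared on the same strand it was 62.0% of 213 genes. The same classes gave 1.42%, 6.57%, 44.5% and 61.5% in the hybrid against CAST, and 0.443%, 0.288%, 0% and 0.939% in CAST against 129. Genes called lower in the hybrid were also more frequent with overlap. Against 129 they were 1.07% without overlap, 10% with 50% or more shared on the other strand and 4.7% on the same strand. Against CAST they were 1.01%, 8.5% and 4.7%. Among genes without overlap that face another gene within 1000 bases, as Mog does, 3.61% of 776 were called higher in the hybrid against 129 and 1.55% against CAST. How strand and shared bases were treated in counting, and whether that was the same in the hybrid as in CAST and 129, is not given in the sources used here, so reads of Gpr17 and Lims2 over shared bases cannot be told apart. The part of overlap in the Gpr17 and Mog counts was not tested.

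**Figure D4:**
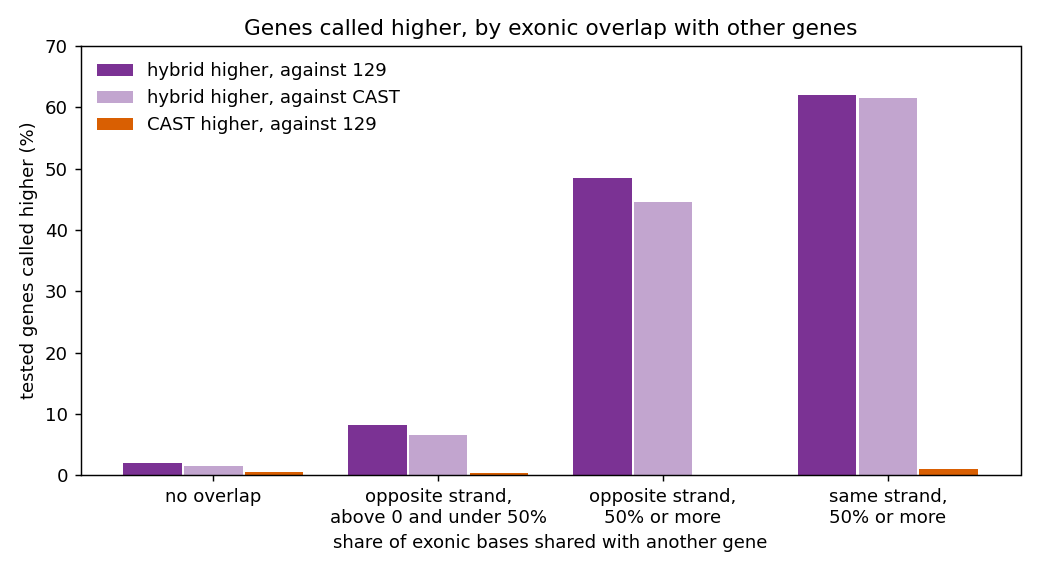
Percentage of tested genes called higher by edgeR (bars from 0) in 4 classes of exonic overlap with another gene, for the hybrid against 129, the hybrid against CAST, and CAST against 129. In the hybrid against 129 the percentage is 2.01% without overlap and 48.5% and 62.0% in the classes with 50% or more shared bases, while no class of CAST against 129 is above 0.939%.

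Mbp, which encodes the protein that compacts myelin, was read in every library. Its locus on chromosome 18 (82475146 to 82585637, plus strand) holds 16 annotated transcripts, including the golli forms made outside oligodendrocytes, and a count over the gene does not separate them. Mbp read 3.61, 1.96 and 6.99 CPM in the hybrid, 4.13, 8.76 and 9.89 CPM in CAST, and 35.7, 12.9 and 9.94 CPM in 129. Every 129 library was above every other one, by a margin of 9.94 CPM in 129 3 against 9.89 CPM in CAST 3 at the closest. The edgeR log2 fold change was −2.20 ± 0.65 for the hybrid over 129 (adjusted p = 0.0857), −0.85 ± 0.64 for the hybrid over CAST (adjusted p = 0.642) and −1.36 ± 0.63 for CAST over 129 (adjusted p = 0.361). None passed, and for the hybrid over 129 DESeq2 gave an adjusted p of 0.012, the only call in 17 alternative settings. With an offset for exon length, the hybrid over 129 was −1.715 (edgeR adjusted p = 0.109).

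Mag (chromosome 7, 30899176 to 30914873, minus strand) encodes a myelin glycoprotein that faces the axon and, in mature neurons, inhibits neurite growth. It had 0.142, 0.838 and 1.40 CPM in the hybrid, 0 CPM in each CAST library, and 3.95, 0.732 and 1.38 CPM in 129. In counts this was 2, 6 and 20 in the hybrid, 0 in CAST, and 71, 12 and 24 in 129. The hybrid and 129 overlapped, and CAST had no read. Against the floor of 3 counts over the CAST group, the hybrid was at least 10.9-fold higher (edgeR adjusted p = 0.0795) and CAST at least 28.5-fold lower than 129 (edgeR adjusted p = 0.0857). These missed the threshold in edgeR, whereas limma-voom gave adjusted p of 0.0476 and 0.0253 and DESeq2 gave 0.00481 and 0.000458. The hybrid over 129 was −1.35 ± 0.94 (edgeR adjusted p = 0.405).

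Between the parental lines edgeR called none of the 8 tested genes in CAST against 129, beside 0.917% of all genes. At an unadjusted p under 0.05 there were 3, Pdgfra, Myrf and Mag, all lower in CAST, beside 14.6% of all genes. DESeq2 called these 3, beside 4.98% of all genes, and limma-voom called Mag, beside 1.58%.

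The wider lineage was read from lists of genes by stage, listed without the 9. Of 16 precursor genes 14 were tested, and 2 rose in the hybrid against 129, Nkx6-2 and C1ql1, beside 5.41% of all tested genes called higher. None of the 14 passed in the hybrid against CAST, where 4 had an unadjusted p under 0.05, or in CAST against 129, where 2 did. Over all tested genes the share with such a p was 14.6% in CAST against 129 and was not counted for the hybrid comparisons. The medians of log2 fold change over the list were −0.16 for the hybrid over 129, 0.44 for the hybrid over CAST and −0.54 for CAST over 129. Olig2, the lineage factor shared with motor neuron progenitors, had 5, 1 and 22 counts in the hybrid, 0, 2 and 12 in CAST, and 76, 18 and 15 in 129. Most of the counts of each line thus came from a single library. Olig2 did not pass in the joint edgeR test (adjusted p = 0.355).

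Nkx6-2, a homeodomain factor of ventral progenitors and maturing oligodendrocytes, had 17.2, 26.0 and 41.1 CPM in the hybrid, 12.3, 11.7 and 11.2 CPM in CAST, and 4.67, 2.62 and 5.11 CPM in 129. The 3 lines did not overlap. The log2 fold change of the hybrid over 129 was 2.76 ± 0.43 (edgeR adjusted p = 0.00462), and it passed under all 17 alternative settings. The hybrid over CAST was 1.26 ± 0.41 (edgeR adjusted p = 0.134) and CAST over 129 was 1.5 ± 0.42 (edgeR adjusted p = 0.143). Nkx6-2 shares 12.9% of its exonic bases with Inpp5a on the other strand. Of 5 tested ventral progenitor markers, 1 passed in the hybrid against 129, where 7.02% of all tested genes did. It was Foxa2, a floor plate factor, at a log2 fold change of 1.58 ± 0.37 (edgeR adjusted p = 0.0309). Of the 5, 2 had a positive value and the median was −0.05.

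C1ql1, which encodes a secreted protein of the complement C1q family made by precursors, had 1.13, 7.82 and 2.10 CPM in the hybrid, 0.516, 0.225 and 0.430 CPM in CAST, and 0.50, 0.305 and 0.115 CPM in 129. All hybrid libraries were above the others and hybrid 2 was far the highest. C1ql1 passed the filter on low counts through its hybrid libraries alone. The log2 fold change of the hybrid over 129 was 3.52 ± 0.87 (edgeR adjusted p = 0.0420). Without hybrid replicate 2 it was 2.36 and did not pass (edgeR adjusted p = 0.112).

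Among 13 genes of the committed and premyelinating stage, all tested, 1 passed in the hybrid against CAST, beside 6% of all tested genes. None passed in the hybrid against 129 or in CAST against 129, where edgeR gave 1 each at an unadjusted p under 0.05. The share of all tested genes with such a p was 14.6% in CAST against 129 and was not counted for the hybrid. Ust, which encodes a sulfotransferase that acts on chondroitin and dermatan sulfate, had 25.5, 12.9 and 13 CPM in the hybrid, 65.7, 75.6 and 41.1 CPM in CAST, and 28.1, 25.4 and 25.2 CPM in 129. CAST lay above both other lines in every library. Ust fell in the hybrid against CAST, with a log2 fold change of −1.83 ± 0.39 (edgeR adjusted p = 0.0216). Without hybrid replicate 2 it was −1.61 and did not pass (edgeR adjusted p = 0.0856).

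Of 19 further myelin sheath and lipid genes 12 were tested, and 1, Trf, rose in the hybrid against both other lines. Over all tested genes edgeR called 5.41% higher in the hybrid against 129 and 4.41% against CAST. In CAST against 129 none passed in edgeR. At an unadjusted p under 0.05 there were 5 of the 12 in the hybrid against 129, 7 in the hybrid against CAST and 2 in CAST against 129. Beside these, 14.6% of all tested genes had such a p in CAST against 129, and the share was not counted for the hybrid comparisons. The medians of log2 fold change over the 12 were 0.46 for the hybrid over 129, 0.03 for the hybrid over CAST and −0.33 for CAST over 129. Trf encodes transferrin, an iron carrier that oligodendrocytes secrete. It had 60, 45 and 55 counts in the hybrid, 1, 4 and 1 counts in CAST, and 0, 0 and 2 counts in 129, which was 4.25, 6.29 and 3.84 CPM in the hybrid. No other library was above 0.225 CPM, and Trf passed the filter on low counts through its hybrid libraries alone. The log2 fold change was 6.66 ± 0.93 over 129 (edgeR adjusted p = 0.00269) and 5.01 ± 0.83 over CAST (edgeR adjusted p = 0.00629), and both passed under all 17 alternative settings. Trf shares 63.5% of its exonic bases with Gm20425 on the same strand. In that class of overlap, 62.0% of genes were called higher in the hybrid against 129 and 61.5% against CAST, and the part of the overlap in the Trf counts was not tested.

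Cldn11, a claudin that forms the tight junctions of myelin, passed only the joint test among the lines (edgeR adjusted p = 0.0251). It had 9, 9 and 4 counts in the hybrid, 0, 3 and 0 counts in CAST, and 45, 27 and 76 counts in 129. Cldn11 passed the filter on low counts only with its 129 libraries. Its place among the tested genes thus depended on the line where it was highest. The lines did not overlap, with 129 highest and CAST lowest. CAST over 129 missed the threshold (edgeR adjusted p = 0.0540). Of the late genes that missed the filter, Mobp had 0 counts in the hybrid, 2, 4 and 6 in CAST, and 27, 2 and 2 in 129. Opalin had 2 counts, all in hybrid 2, and 0 in CAST and 129.

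**Figure D5:**
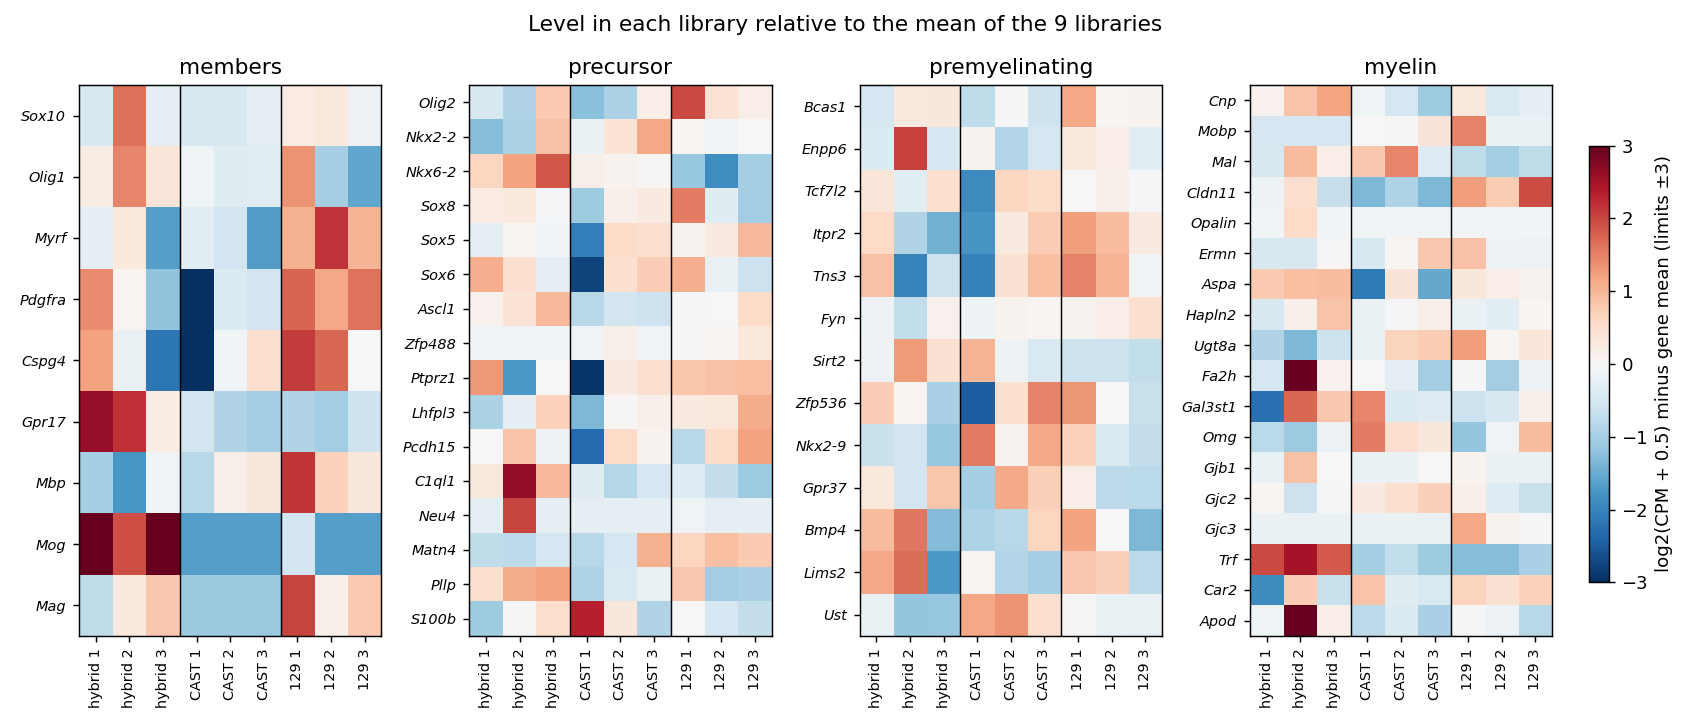
Log2(CPM + 0.5) minus the gene's mean over the 9 libraries (colour, limited to ±3) for the 9 genes and for genes of the precursor, premyelinating and myelin lists, with hybrid, CAST and 129 libraries in columns. Mog and Trf stand out in all hybrid libraries and Gpr17 in hybrid 1 and hybrid 2, while Sox10, C1ql1 and Fa2h stand out in hybrid 2.

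Signals and regulators of the lineage gave no call. Of 22 listed, 20 were analysed and 19 tested, and edgeR found none past the threshold or at an unadjusted p under 0.05 in any of the 3 comparisons. The highest in mean CPM over the 9 libraries were Smarca4, a chromatin remodelling ATPase, and Qk, which encodes an RNA-binding protein that regulates myelin transcripts. Smarca4 averaged 306 ± 91.6 CPM in the hybrid, 340 ± 41.1 CPM in CAST and 354 ± 32.7 CPM in 129. Qk had 337, 24.7 and 63.8 CPM in the hybrid, 12.6, 187 and 270 CPM in CAST, and 455, 327 and 308 CPM in 129. The lowest Qk levels were those of hybrid 2, hybrid 3 and CAST 1, the libraries with a negative slope on exon length.

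The inhibitors of neurite growth that myelin carries and their receptors were also without a call, in all of 6 tested genes. At an unadjusted p under 0.05 there were 0 in both hybrid comparisons and 1 in CAST against 129, beside 14.6% of all tested genes there. Rtn4, which encodes Nogo, averaged 751 ± 344 CPM in the hybrid, 876 ± 234 CPM in CAST and 1418 ± 317 CPM in 129. Ngfr, the neurotrophin receptor that can act with the Nogo receptor, averaged 84.1 ± 34.9 CPM in the hybrid, 153 ± 49.7 CPM in CAST and 98.1 ± 58.8 CPM in 129.

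Myelin genes are also used by Schwann cells, the myelinating cells of peripheral nerve. Of 12 analysed Schwann cell and neural crest markers, none of the 9 tested passed in edgeR, and at an unadjusted p under 0.05 there were 1 in the hybrid against 129, 2 in the hybrid against CAST and 3 in CAST against 129. Beside the last, 14.6% of all tested genes had such a p, and the share was not counted for the hybrid comparisons. The sum of the markers ran from 503 to 1225 CPM in the hybrid, 327 to 618 CPM in CAST and 263 to 524 CPM in 129. Much of that sum was Fabp7, which radial glia also express, at 368, 1076 and 927 CPM in the hybrid, 390, 417 and 221 CPM in CAST, and 402, 145 and 186 CPM in 129. Foxd3, a neural crest factor, had 0 counts in the hybrid, 4 in CAST and 7 in 129. The medians of log2 fold change over the 9 were 0.24 for the hybrid over 129, 0.86 for the hybrid over CAST and −0.63 for CAST over 129. Astrocyte and radial glia markers summed to 3367 to 5480 CPM in the hybrid, 3350 to 3766 CPM in CAST and 1268 to 3522 CPM in 129, and none of 9 passed in edgeR, with 3, 1 and 0 at an unadjusted p under 0.05 in the hybrid against 129, the hybrid against CAST and CAST against 129. Vim made up most of this last sum in every library, averaging 3710, 2778 and 1738 CPM in the hybrid, CAST and 129. Median log2 fold changes of these 9 were 0.20, −0.31 and 0.31 for the hybrid over 129, the hybrid over CAST and CAST over 129. In the same order, 5, 3 and 6 of the 9 had a positive value. The part of Schwann cells, neural crest, astrocytes and radial glia in the levels of the lineage genes was not tested.

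Genes most like each of the 8 tested genes were ranked by Pearson correlation of log2 CPM over the 9 libraries, as a description. For Pdgfra they were Cntln (0.99), Mitf (0.98) and Gucy1a1 (0.97), and Cspg4 was close to Plag1 (0.98) and Rora (0.98). Mog was closest to Gm26618 (0.99), Acsm3 (0.98) and Rubcnl (0.98), and Gpr17 to Gm13684 (0.98), Ghrl (0.97) and Gm15270 (0.97). Similar genes were Tap2, Etv5 and Vgll4 for Mbp (0.92 to 0.94), Tnfaip6, Casp1 and Icosl for Mag (0.92 to 0.94), Kirrel3 (0.95) and Dbp (0.94) for Olig1, and Serpinb6b (0.94) and Ccnb1ip1 (0.92) for Myrf. None of these was another of the 9. Within the 9, Gpr17 and Mog had a correlation of 0.82, and Gpr17 and Mbp one of −0.76.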

How the data were processed

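The deposited values are counts, whole numbers of reads per Ensembl gene for 9 libraries, and no normalization by the authors shows in them. Reads were aligned with STAR to mm10, per the submitters' processing notes. For the STAR version, the counting tool, its annotation and its handling of strand, the sources used here give nothing. Each column is named by line and a B number, read here as the label's replicate. Symbols, positions, exon lengths and overlaps were joined from GENCODE M21 (GRCm38, also called mm10), which named 27030 of 27071 IDs. Some listed genes were not analysed here.

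Genes were kept by filterByExpr (minimum count 10, total 15, proportion 0.7) and tested by robust quasi-likelihood in edgeR 4.0.16 (R 4.3.3) after TMM scaling, with 1 fit over all 9 libraries and no covariates. P-values are two-sided, adjusted by Benjamini-Hochberg over 14839 genes, threshold 0.05. Log2 CPM for correlations used a prior count of 2. Alternatives were DESeq2 1.42.0, limma-voom (limma 3.58.1), other scaling, no filter, an exon length offset, a replicate block and left-out libraries. The code was tested on simulated data. A group at 0 counts was given a floor of 3 counts over the group.

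The 9 genes, the lists and the tests were chosen with earlier results of these data known. The overlap classes, and the neighbours Lims2 and Zfp57, were chosen after the values were seen, as were Olig2, Mobp, Opalin, Cldn11 and the markers Foxa2, Foxd3 and Fabp7 as examples. All 9 genes were named. From the lists, every gene past the threshold in a pairwise comparison was named, or else the 2 with the highest CPM. The 3 most similar genes were taken for each tested one, and some genes are not reported here.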

Additional observations from a re-analysis of the deposited data

How the results depend on the processing

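Of 405 values of the 24 tested member results under 17 alternative settings, 362 kept direction and side of the threshold, 23 lost a call, 9 gained one and 11 reversed. Only Gpr17 and Mog in the 2 hybrid comparisons were calls that could be lost, and the other results were uncalled. Against 129, Gpr17 kept its call in 11 and Mog in 10 of the 17 settings. Against CAST, Gpr17 kept it in 9 and Mog in 15. In the hybrid against 129, 2 of the 9 genes were called, 0 with the replicate number as a block, and 0 to 2 with 1 library left out. In the hybrid against CAST, 2 were called, 0 under the block, 1 with only the compared lines in the fit, 1 with both CAST 1 and hybrid 2 left out, and 0 to 2 with 1 library left out. In CAST against 129, 0 were called, but 3 with DESeq2 and 1 with limma-voom. For any difference, 2 were called, but 4 without the filter and 5 with DESeq2. Under the block, edgeR adjusted p in the hybrid against 129 was 0.102 for Gpr17 and 0.0772 for Mog, and against CAST 0.0845 and 0.0501. Of 9 same-number pairs, 2 had a correlation of deviations above 0.1 (−0.72 to 0.49). The labels do not say whether equal numbers share a batch, and with 3 libraries per line these correlations cannot settle it. The uncalled log2 fold changes that reversed were Olig1 in CAST over 129 (0.29 with limma-voom, −1.03 to 1.32 with 1 library left out), Myrf in the hybrid over CAST (−0.0044 to 0.91 with 1 left out), Cspg4 in the hybrid over CAST (−0.25 under the block, −0.88 to 1.22 with 1 left out) and Gpr17 in CAST over 129 (0.0857 with the length offset, 0.20 with limma-voom, −1.12 to 1.18 with 1 left out). The cause was not tested.

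Calls over all genes moved more. CAST against 129 had 136, but 795 with DESeq2, 234 with limma-voom, 6 under the block, 267 with the length offset, 230 without CAST 1 and hybrid 2, and 26 to 157 with 1 library left out. The hybrid against 129 had 1041, but 2087 with DESeq2, 561 under the block and 522 to 1717 with 1 left out. The hybrid against CAST had 891, but 1674 with DESeq2 and 526 under the block. For any difference there were 1192, but 2553 with DESeq2, 651 under the block and 788 to 1485 with 1 left out. Of the list genes, C1ql1 passed in 5 and Ust in 11 of 17 settings. Low counts limit Sox10, Mag, Gpr17 and, outside the hybrid, Mog.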
